A study of Mus musculus with 8 samples.

Results

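The genes described here encode enzymes that turn cholesterol into bile acids and pumps that move bile acids and phospholipid out of the hepatocyte. They were 10 mouse genes, Cyp7a1, Cyp8b1, Cyp27a1, Cyp7b1, Cyp39a1, Amacr, Baat, Abcb11, Abcb4 and Fgfr4. They were chosen by name, but with earlier results of these data known. Their probes were those annotated to these symbols with a detection p-value of at most 0.05 in at least 1 array. Of the 10 genes 9 had such a probe, with 12 probes of the 19618 detected in all and of 45281 on the array. Fgfr4 had 0 probes under its name in the annotation used. That annotation covered only the 16820 probes of the authors' filtered table of normalized values, which lacked 2798 of the detected probes. It gave 1 symbol to 14408 probes, and 5210 of the detected probes had no single symbol. Whether the array holds an Fgfr4 probe, or further probes of the other genes, without a name here was not tested. Of the 12 probes 10 were detected in all 8 arrays, and the other 2, of Amacr and Cyp39a1, only in some.

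RNA came from hepatocytes of mice on a mixed CD1 x 129S1/SvImJ background, 2 to 3 months after birth, and all of them, controls included, were homozygous for a floxed Gata4 gene (GATA4 fl/fl). Each mouse had been injected intravenously 2 weeks earlier with adeno-associated virus carrying either Cre recombinase (AAV8-Tbg-Cre, here AAV-Cre) or GFP (AAV8-Tbg-GFP, here AAV-GFP), both under the thyroxine-binding globulin (Tbg) promoter, which is active in hepatocytes. Cells that do not use that promoter keep GATA4, and the hepatocytes were purified on a Percoll gradient. The comparison asks how these transcripts differed after hepatocytes lost GATA4, a zinc finger transcription factor, with 4 AAV-Cre and 4 AAV-GFP samples on 1 mouse whole-genome bead array each. The arrays are called Cre 1 to 4 and GFP 1 to 4 here, numbered within each group in the order of the samples.

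Bile acids are made from cholesterol along a pair of routes. The classic route begins with CYP7A1, the rate-limiting cholesterol 7α-hydroxylase, and CYP8B1 adds the 12α-hydroxyl group that gives cholic acid. The alternative route begins with CYP27A1, a mitochondrial hydroxylase of the sterol side chain, and its oxysterols are 7α-hydroxylated by CYP7B1, while CYP39A1 does the same to an oxysterol made mainly in brain. AMACR, a racemase, sets the configuration of the side chain before it is shortened in peroxisomes, and BAAT joins the finished acid to taurine or glycine. ABCB11 (the bile salt export pump) and ABCB4 (which brings phosphatidylcholine to the bile side of the membrane) act at the canaliculus. FGFR4 is the hepatocyte receptor through which a hormone of the intestine represses Cyp7a1.

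Reference promoters were at hand for 5 of the 10 genes, Cyp8b1, Cyp27a1, Abcb11, Abcb4 and Fgfr4 (RefSeq, GRCm38.p6, 300 bases from 250 before to 50 after the start). The study removed a GATA factor, so they were searched on both strands for the GATA motif, spelled AGATAA or else TGATAA, and likewise AGATAG or else TGATAG, and for the motif of the nuclear receptor LRH-1 (NR5A2), an activator of Cyp7a1 and Cyp8b1, spelled AAGGTCA or else AAGGCCA. No spelling overlapped one of the other motif. Abcb11 held 1 GATA match, AGATAG with its first base at position -40 from the start, and the other 4 held none. Cyp8b1 held the only LRH-1 spelling, AAGGCCA at position -27. A GATA spelling occurred in 29.8% of the 32851 promoters in the reference and an LRH-1 spelling in 10.6%. A match is a description of letters and not a bound site. The 250 bases before the start of the genes with a match are shown 5′ to 3′ in the direction of the gene, the match in capitals, at chr2:69342617-69342866 (minus strand) for Abcb11 and chr9:121916306-121916555 (minus strand) for Cyp8b1.
Abcb11: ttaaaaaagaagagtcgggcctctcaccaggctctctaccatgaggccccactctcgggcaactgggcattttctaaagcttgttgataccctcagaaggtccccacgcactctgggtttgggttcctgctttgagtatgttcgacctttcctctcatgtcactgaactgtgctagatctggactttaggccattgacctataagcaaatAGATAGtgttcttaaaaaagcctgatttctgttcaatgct
Cyp8b1: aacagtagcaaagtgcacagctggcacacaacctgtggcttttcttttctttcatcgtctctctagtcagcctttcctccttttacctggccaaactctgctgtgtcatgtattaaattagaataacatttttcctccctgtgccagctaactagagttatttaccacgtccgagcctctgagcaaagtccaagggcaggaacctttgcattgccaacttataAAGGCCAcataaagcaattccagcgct

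The arrays were compared before the genes. Between 14788 and 16387 probes were detected per array, and no 2 arrays were identical. The precision is limited by the number of arrays, since bead signals carry no depth. Nothing in the labels says that each sample was its own mouse, so p-values measure only the spread between these samples, part of which may be technical. The single Gata4 probe was detected in none of the AAV-GFP arrays and in 1 AAV-Cre array, with log2 signals of 5.31, 5.37, 5.02 and 5.10 in GFP 1 to 4 and 6.28, 5.85, 5.72 and 5.84 in Cre 1 to 4, so it checked neither the excision nor the labels. Xist, the RNA of the inactive X chromosome, stood at 13.33 and 13.78 in GFP 1 and 4 and between 5.07 and 5.33 in the other 6 arrays. The Y-linked Uty stood at 6.08 and 5.93 in GFP 1 and 4 and between 7.09 and 7.56 in the other 6. Kdm5d, also Y-linked, stood at 5.47 and 5.42 in GFP 1 and 4, but also at 5.96 and 5.37 in Cre 3 and 4. In the remaining arrays Kdm5d lay between 7.75 and 8.34. Sex is not among the labels. GFP 1 also stood apart in the clock output gene Dbp, at 8.89 against 13.78 to 14.86 elsewhere. Cre 3 and 4 lay together below all other arrays in 13.2% of probes and above them in 17.3%. The members were therefore also compared without GFP 1 and 4 and without Cre 3 and 4. Of 10 hepatocyte markers 6 were measured, and Hnf4a, F10, Alb, Apob and Serpina1a were detected in every array while Tat passed detection in 1 of 8. A lower signal in bulk RNA can mean fewer cells of a type or less RNA per cell, which cannot be told apart here.

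**Figure D1:**
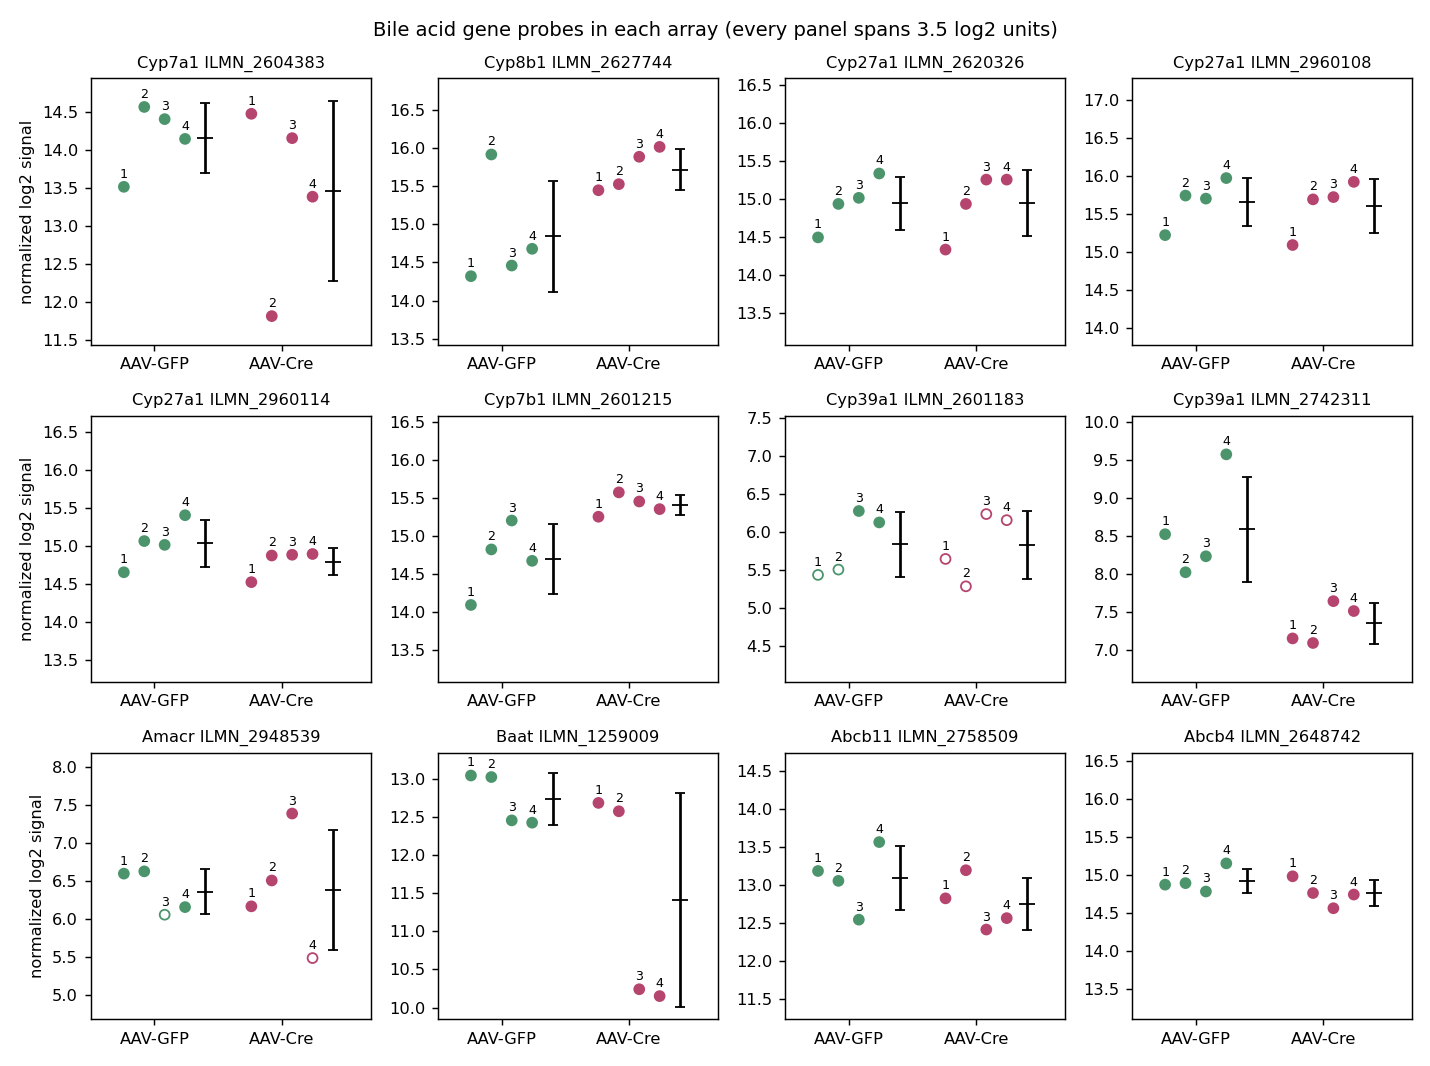
Normalized log2 signal (vertical axis) of each of the 12 probes in the 4 AAV-GFP (green) and 4 AAV-Cre (red) arrays, numbered by replicate, with open points for arrays in which the probe was not detected and black bars for the mean ± SD. Only Cyp7b1 (AAV-Cre 15.25 to 15.57 above AAV-GFP 14.09 to 15.20) and Cyp39a1 ILMN_2742311 (AAV-Cre 7.09 to 7.64 below AAV-GFP 8.02 to 9.57) had groups that did not overlap.

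The clearest differences among these genes were in Cyp39a1 and Cyp7b1, without overlap between the groups, and in Cyp8b1, with overlap. In AAV-Cre the signal was 2.36-fold lower for Cyp39a1 ILMN_2742311, 1.63-fold higher for Cyp7b1 and 1.84-fold higher for Cyp8b1. ILMN_2742311 was dim, and its log2 difference was -0.617 without background correction. The other Cyp39a1 probe, near background, differed by -0.0053. Cyp7a1 and Baat had low AAV-Cre means that rested on 1 and 2 arrays, and Cyp27a1, Amacr and the pumps Abcb11 and Abcb4 differed by 0.34 or less on the log2 scale in either direction. None of the 12 probes passed the limma test at an adjusted p of 0.25, and the smallest adjusted p among them was 0.518. Over all 19618 probes 1 (0.0051%) passed, which was lower in AAV-Cre. At an unadjusted p under 0.05 there were 3 member probes, Cyp8b1 and Cyp7b1 higher and Cyp39a1 lower in AAV-Cre, or 25% of the 12, beside 9.46% of all probes (5.2% higher and 4.26% lower). Without GFP 1 and 4, and likewise without Cre 3 and 4, Cyp39a1 ILMN_2742311 alone was left at that p, beside 5.39% and 3.79% of all probes. The groups did not overlap in 2 member probes (16.7%), 1 in each direction, beside 4.86% of all probes (3.12% higher and 1.74% lower). Of the 12 differences 8 were negative (66.7%, beside 43.6% of all probes), and the median of the 12 was -0.106, beside 0.044 over all probes. Among the negative ones Cyp39a1 ILMN_2601183 passed detection only through AAV-GFP. The number of negative ones was 6 with scaling to the 75th percentile and 10 after cyclic loess. The median SE of a log2 difference over all probes was 0.21. The SAM statistic of the study's methods, computed anew here, called 1 member, Cyp7b1, on the authors' own normalized values at an FDR of 25%. It called 543 probes in all (3.23%, of which 525 higher). The study itself reported a larger list at that FDR, so the size of its SAM list was not reproduced. That list too held Cyp7b1 as higher. The study also reported a change of Cyp7b1 by RT-qPCR and GATA4 occupancy at the gene. On the values used here SAM called 1 probe in all and no member.

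**Figure D2:**
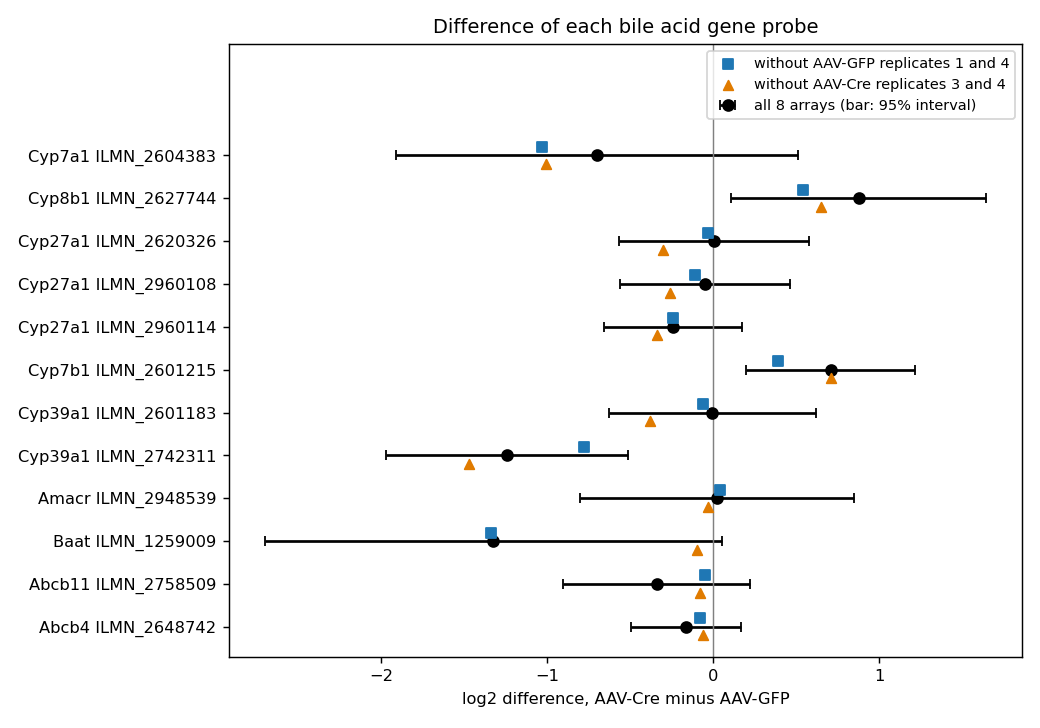
Log2 difference, AAV-Cre minus AAV-GFP (horizontal axis), of each of the 12 probes with its 95% interval from limma over all 8 arrays (black), and the difference without GFP 1 and 4 (blue squares) or without Cre 3 and 4 (orange triangles). The interval lies to 1 side of 0 for Cyp8b1, Cyp7b1 and Cyp39a1 ILMN_2742311, and the difference of Baat moves from -1.33 to -0.10 without Cre 3 and 4.

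Cyp7a1, the first enzyme of the classic route, varied more within AAV-Cre than any member but Baat. Its log2 signal was 13.51, 14.56, 14.40 and 14.14 in GFP 1 to 4. In Cre 1 to 4 it was 14.47, 11.81, 14.15 and 13.38. The groups overlapped, and Cre 2 alone lay far below every other array, at 19.7% of the AAV-GFP mean (taken, as in all such percentages, on the log2 scale), while Cre 1 and 3 lay at 125% and 99.7%. The means were 14.15 ± 0.46 in AAV-GFP and 13.45 ± 1.19 in AAV-Cre (SD, n = 4 each), a difference of -0.70 ± 0.53 (SE) with a 95% interval from -1.91 to 0.51 (limma adjusted p = 0.624). It was -0.152 without Cre 2 and -1.04 without Cre 1, and -1.03 without GFP 1 and 4 and -1.01 without Cre 3 and 4. GFP 1, with the low Dbp, had the lowest Cyp7a1 of the controls, whereas Dbp in Cre 2 was 14.32, within the range of the other arrays. The part of the clock genes in Cyp7a1 was not tested.

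Cyp8b1, the 12α-hydroxylase whose promoter is shown above, had log2 signals of 14.32, 15.92, 14.46 and 14.68 in GFP 1 to 4. In Cre 1 to 4 it had 15.45, 15.53, 15.89 and 16.02. All 4 AAV-Cre arrays lay above GFP 1, 3 and 4, but GFP 2 lay among them, so the groups overlapped. The means of 14.85 ± 0.73 and 15.72 ± 0.28 (SD, n = 4 each) differed by 0.88 ± 0.34 (SE), a 1.84-fold higher signal in AAV-Cre, with a 95% interval from 0.11 to 1.65 and an unadjusted p of 0.0301 (limma adjusted p = 0.518). Leaving out 1 array moved the difference from 0.707 (without GFP 1) to 1.24 (without GFP 2). It was 0.54 without GFP 1 and 4, where its unadjusted p was 0.239, and 0.65 without Cre 3 and 4. The deposited signal reached 63972 in GFP 2 and 63405 in Cre 4, near the highest signals on any array (70406 to 71285). Whether this limited the difference was not tested.

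Cyp27a1, the first enzyme of the alternative route, had 3 probes, none at an unadjusted p under 0.05. Probe ILMN_2620326 had 14.50, 14.94, 15.02 and 15.34 in GFP 1 to 4 and 14.34, 14.94, 15.26 and 15.26 in Cre 1 to 4. The groups covered almost the same range, and replicate 1 was the lowest array of both. The difference was 0.0047 ± 0.25 (SE) with a 95% interval from -0.57 to 0.58. ILMN_2960108 differed by -0.048 ± 0.23 (SE, 95% interval -0.56 to 0.46), and by -0.26 without Cre 3 and 4 and -0.11 without GFP 1 and 4. Again replicate 1 was the lowest of each group, at 15.22 and 15.09, where the other 6 arrays lay between 15.69 and 15.97. The third probe, ILMN_2960114, had 14.66, 15.07, 15.02 and 15.41 in AAV-GFP and 14.53, 14.88, 14.89 and 14.90 in AAV-Cre, a difference of -0.24 ± 0.18 (SE, 95% interval -0.66 to 0.17). Leaving out 1 array moved it from -0.369 (without GFP 1) to -0.115 (without GFP 4), and it was -0.152 without Cre 1.

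Cyp7b1, the oxysterol 7α-hydroxylase, which is known to be higher in livers of male than of female mice, had log2 signals of 14.09, 14.82, 15.20 and 14.67 in GFP 1 to 4. In Cre 1 to 4 it had 15.25, 15.57, 15.45 and 15.35. Every AAV-Cre array was above every AAV-GFP array, by a margin of 15.25 against 15.20 at the closest pair, and the AAV-Cre arrays spread less. The means were 14.70 ± 0.46 and 15.40 ± 0.14 (SD, n = 4 each), a difference of 0.71 ± 0.23 (SE) or 1.63-fold, with a 95% interval from 0.20 to 1.22 and an unadjusted p of 0.0122 (limma adjusted p = 0.518). The lowest control was GFP 1, and without it the difference was 0.505. Without GFP 1 and 4, the arrays with high Xist, it was 0.39 ± 0.19 (SE) with an unadjusted p of 0.0774. GFP 2 and 3, which had low Xist as all AAV-Cre arrays did, were below every AAV-Cre array. SAM on the authors' values gave Cyp7b1 a q of 21.8%, and on the values used here 31.2%.

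Genes known to be higher in livers of male or of female mice varied with the same arrays. All 10 measured genes of a list of 12 male-biased liver genes had positive differences, 4 of them at an unadjusted p under 0.05 (beside 9.46% of all probes). Their median was 1.46, with a summed intensity from 26938 to 196508 in AAV-GFP and from 176638 to 186401 in AAV-Cre. All 9 measured genes of a list of 14 female-biased ones had negative differences, 2 at that p, with a median of -1.55. Of these, A1bg, Sult3a1, Cux2 and Hao2 were detected in no AAV-Cre array. They passed detection only through AAV-GFP, so their sign adds no support. Cux2, for example, stood at 10.10 and 11.43 in GFP 1 and 4 and at 5.44 and 5.51 in GFP 2 and 3. Only 4 of the 10 male-biased genes had positive differences without GFP 1 and 4, with a median of -0.10, and 5 of 6 measured female-biased genes had negative ones. No gene of either list was called. The part of this in the Cyp7b1 difference was not tested beyond the values without GFP 1 and 4.

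Cyp39a1, the other oxysterol 7α-hydroxylase, known to be higher in female than in male mouse liver, had the smallest p of the members. ILMN_2742311 gave log2 signals of 8.52, 8.02, 8.23 and 9.57 in GFP 1 to 4. In Cre 1 to 4 it gave 7.15, 7.09, 7.64 and 7.51. Every AAV-Cre array was below every AAV-GFP array, and GFP 4 was the highest by a wide margin. The means of 8.59 ± 0.69 and 7.34 ± 0.27 (SD, n = 4 each) differed by -1.24 ± 0.32 (SE), a 2.36-fold lower signal in AAV-Cre, with a 95% interval from -1.97 to -0.51, an unadjusted p of 0.00396 and a limma adjusted p of 0.518. Without GFP 1 and 4 the difference was -0.78 ± 0.22 (SE) with an unadjusted p of 0.00948, and without Cre 3 and 4 it was -1.47. This probe lay low on the arrays, with deposited signals between 386 and 1086, and without background correction its difference was -0.617.

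The other Cyp39a1 probe, ILMN_2601183, was near background. It was detected only in GFP 3 and 4, and in none of the AAV-Cre arrays, with 5.44, 5.51, 6.28 and 6.13 in AAV-GFP and 5.65, 5.29, 6.24 and 6.16 in AAV-Cre. Its difference was -0.0053 ± 0.28 (SE), and -0.38 ± 0.30 (SE) without Cre 3 and 4. The probes of Cyp39a1 therefore disagreed in size, and the second gave no fold because both groups lay near the detection limit.

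The routes were set side by side in each array as the mean deviation of their genes from the AAV-GFP mean, with the probes of a gene averaged first. The classic route (Cyp7a1 and Cyp8b1) had deviations of -0.58, 0.74, -0.07 and -0.09 in GFP 1 to 4 and 0.46, -0.83, 0.52 and 0.20 in Cre 1 to 4. The alternative route (Cyp27a1, Cyp7b1 and Cyp39a1) had -0.42, -0.09, 0.19 and 0.32 in AAV-GFP and -0.27, -0.06, 0.18 and 0.14 in AAV-Cre. Neither route separated the groups. The alternative minus the classic route was -0.09 in AAV-Cre relative to AAV-GFP, where the SD over arrays was 0.57 (AAV-GFP) and 0.64 (AAV-Cre) (n = 4 each), a description with no test. It took values on both sides of 0 when arrays were left out, from -0.378 (without Cre 2) to 0.125 (without Cre 1). Within each route genes had differences of opposite sign, so the means of the routes hide them. They were -0.70 for Cyp7a1 against 0.88 for Cyp8b1, and 0.71 for Cyp7b1 against -1.24 for Cyp39a1 ILMN_2742311. Cyp39a1 entered its route as the average of that probe and ILMN_2601183, which differed by -0.0053 near background. With 1 probe per gene the alternative minus the classic route was -0.282.

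**Figure D3:**
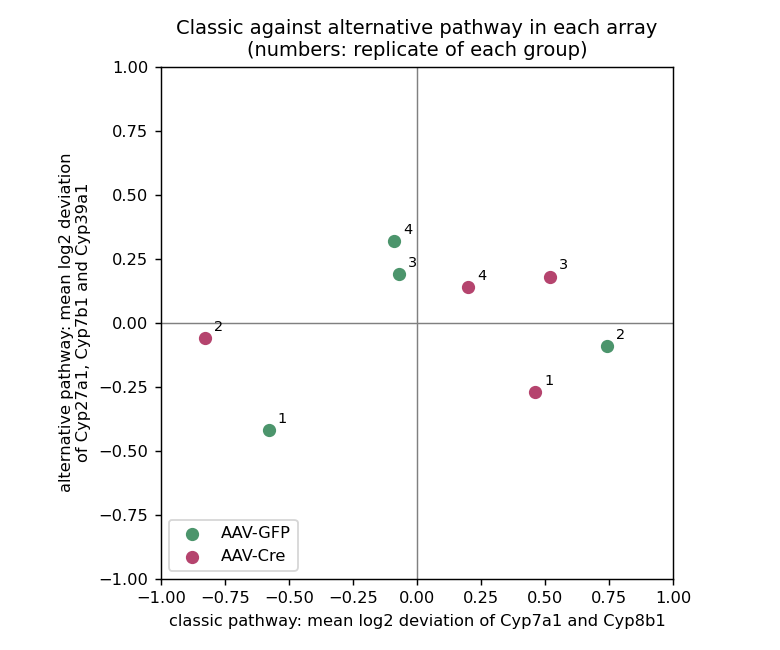
Mean log2 deviation from the AAV-GFP mean of the alternative route (vertical axis: Cyp27a1, Cyp7b1 and Cyp39a1) against the classic route (horizontal axis: Cyp7a1 and Cyp8b1), 1 point per array with its replicate number, AAV-GFP green and AAV-Cre red. The groups lie among each other, with Cre 2 at -0.83 and GFP 2 at 0.74 as the ends of the classic axis.

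Amacr was dim and followed no group. It was detected in 6 of 8 arrays (not in GFP 3 or Cre 4), at 6.60, 6.63, 6.06 and 6.16 in GFP 1 to 4. In Cre 1 to 4 it was 6.17, 6.51, 7.39 and 5.49. The highest and the lowest of the 8 arrays were both AAV-Cre. The difference was 0.023 ± 0.36 (SE) with a 95% interval from -0.80 to 0.85, and its sign changed with single arrays left out.

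Baat, the conjugating enzyme, split the AAV-Cre group. Its log2 signal was 13.05, 13.03, 12.46 and 12.43 in GFP 1 to 4. In Cre 1 to 4 it was 12.69, 12.58, 10.24 and 10.15. Cre 1 and 2 lay within the controls, at 96.6% and 89.7% of the AAV-GFP mean, and Cre 3 and 4 far below, at 17.6% and 16.6%. The same split was in the deposited signals before any normalization, 1368 and 1126 in those 2 arrays against 5955 to 10314 in the other 6. The means were 12.74 ± 0.34 and 11.42 ± 1.41 (SD, n = 4 each), a difference of -1.33 ± 0.61 (SE) with a 95% interval from -2.70 to 0.050, an unadjusted p of 0.0572 and a limma adjusted p of 0.518. Without Cre 3 and 4 the difference was -0.10 ± 0.24 (SE).

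Gaps of this size were uncommon over all probes, some of which lie too near background to fall that far. The cut of 2 used for this count was not planned. Cre 3 and 4 both lay at least 2 log2 units below the lowest other array in 64 of 19618 probes (0.326%), of which Baat was 1 with a gap of 2.19, and at least 2 above the highest other array in 0 probes. Those 2 arrays also had the lowest counts of detected probes, 14788 and 15067, beside 15406 to 16387 in the others. The part of the lower detection in the Baat values was not tested.

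The canalicular pumps had overlapping groups. Abcb11, whose promoter holds the GATA spelling shown above, had 13.18, 13.05, 12.54 and 13.56 in GFP 1 to 4 and 12.82, 13.19, 12.41 and 12.56 in Cre 1 to 4. The lowest array was Cre 3. Its difference was -0.34 ± 0.25 (SE, n = 4 each) with a 95% interval from -0.90 to 0.22 (limma adjusted p = 0.607), and it was -0.05 without GFP 1 and 4 and -0.08 without Cre 3 and 4. With 1 array left out it ran from -0.52 (without GFP 3) to -0.18 (without GFP 4). Abcb4 had 14.87, 14.89, 14.78 and 15.15 in AAV-GFP and 14.98, 14.76, 14.56 and 14.74 in AAV-Cre. All 8 values of Abcb4 lay within a narrow band. The difference was -0.16 ± 0.15 (SE) with a 95% interval from -0.49 to 0.17 (limma adjusted p = 0.670), the narrowest interval of the 12 probes. This difference was smaller still at -0.0911 without GFP 4, -0.0986 without Cre 3, -0.08 without GFP 1 and 4 and -0.06 without Cre 3 and 4.

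**Figure D4:**
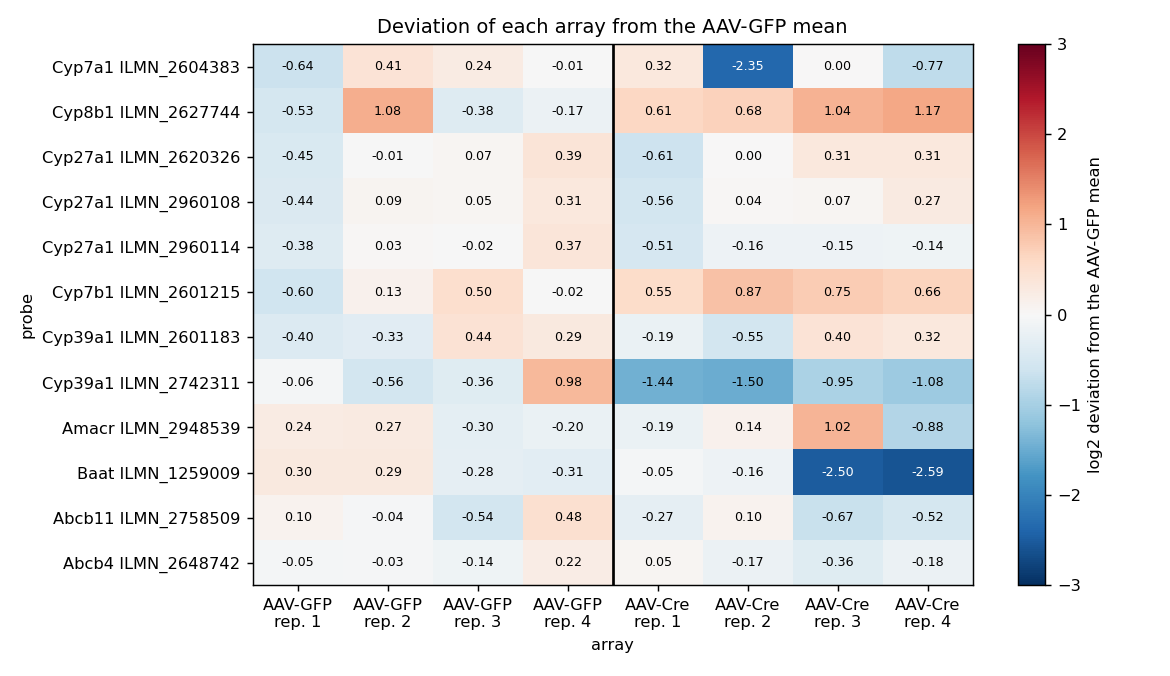
Log2 deviation of each array (columns) from the AAV-GFP mean for each of the 12 probes (rows), red above and blue below that mean, with the value in each cell and AAV-GFP to the left of the black line. Cyp7b1 is positive in all 4 AAV-Cre arrays (0.55 to 0.87) and Cyp39a1 ILMN_2742311 negative in all 4 (-0.95 to -1.50), whereas Cyp7a1 (-2.35) and Baat (-2.50 and -2.59) are far from the mean in 1 and 2 AAV-Cre arrays.

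Other enzymes of bile acid synthesis and conjugation were read from a list of 12 genes, of which 9 were measured. None was called or passed an unadjusted p of 0.05, with 6 positive and 3 negative differences and a median of 0.13 (0.044 over all probes), which became 4 positive and 5 negative without Cre 3 and 4. Hsd3b7, the 3β-hydroxysteroid dehydrogenase that follows the 7α-hydroxylases in both routes, had the smallest p, with 15.65, 15.21, 14.79 and 15.48 in AAV-GFP and 15.87, 15.55, 15.61 and 15.97 in AAV-Cre. Its groups overlapped through GFP 1, and it differed by 0.46 ± 0.21 (SE, unadjusted p = 0.0518). The difference was 0.76 ± 0.22 (SE, unadjusted p = 0.0104) without GFP 1 and 4, and 0.30 without GFP 3. Akr1c6 differed by 0.39 ± 0.24 (SE). Cyp2c70, which makes the muricholic acids of mice, differed by -0.20.

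Of 14 other transporters of bile acids and bile lipids 10 were measured, with 4 positive and 6 negative differences, a median of -0.15 and 0 calls. Abcc3, a basolateral exporter of conjugates, was the 1 gene at an unadjusted p under 0.05, with 13.38, 14.11, 13.48 and 13.64 in AAV-GFP and 13.95, 13.95, 14.27 and 14.24 in AAV-Cre. GFP 2 lay within the AAV-Cre range. The difference was 0.45 ± 0.19 (SE, unadjusted p = 0.0417), and it was 0.30 without GFP 1 and 4 and 0.29 without Cre 3 and 4. The uptake carriers Slco1a4 and Slco1b2 differed by -0.59 ± 0.27 and -0.52 ± 0.28 (SE), with overlapping groups, and in Slco1b2 the lowest values, 12.81 and 12.33, were again Cre 3 and 4. Without those arrays Slco1b2 differed by -0.04 (-0.28 without Cre 4 alone), and without GFP 1 and 4 Slco1a4 differed by -0.18 (-0.35 without GFP 4 alone).

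Among 19 regulators of bile acid synthesis 15 were measured, with 8 positive and 7 negative differences, a median of 0.02 and 0 calls. Gata4, among the positive ones, passed detection only through 1 AAV-Cre array, so its sign adds no support. Besides Gata4, 2 regulators had an unadjusted p under 0.05, as 9.46% of all probes did. Foxa2, a forkhead factor of liver, had 8.88, 9.83, 9.04 and 8.95 in AAV-GFP and 8.05, 8.48, 8.85 and 8.24 in AAV-Cre. Every AAV-Cre value of Foxa2 lay below every AAV-GFP value, as in 1.74% of all probes. Its difference was -0.77 ± 0.25 (SE, unadjusted p = 0.0143, limma adjusted p = 0.518), and over all alternatives it ran from -0.48 without background correction (-0.49 on the authors' value table) to -1.05 without GFP 1 and 4. Nr1i2, the xenobiotic receptor PXR, differed by -0.55 ± 0.22 (SE, unadjusted p = 0.0301), with groups that overlapped through GFP 1 (10.67). It was -0.74 without GFP 1 and 4 and -0.39 without Cre 3 and 4. Nr0b2, the repressor SHP, was not measured under its name here.

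The measured markers of macrophages and of sinusoidal endothelial cells had positive differences, as Cyp7b1 and Cyp8b1 did, whereas those of stellate cells were split. All 8 measured of 11 Kupffer and macrophage markers had positive differences, 4 at an unadjusted p under 0.05 (beside 9.46% of all probes). Marco passed detection only through 1 AAV-Cre array, so its sign adds no support. The summed intensity of the 8 markers ran from 1095 to 1903 in AAV-GFP and from 1802 to 2649 in AAV-Cre. All 9 measured of 10 sinusoidal endothelial markers had positive differences too, 3 at that p, with sums from 4441 to 9166 and from 6592 to 9528. The macrophage and endothelial medians of 0.51 and 0.52 were 0.61 and 0.63 without GFP 1 and 4 and 0.83 and 0.30 without Cre 3 and 4. Without GFP 2 or without Cre 1, 7 of the 8 macrophage markers were positive (6 of 7 measured without Cre 2). The macrophage count at that p was 1 without GFP 1, Cre 1 or Cre 2, and the endothelial count was 0 without Cre 3 and 4 and 7 without GFP 4. Over all probes the share at that p was 8% without GFP 1, 16.2% without Cre 1 and 13.9% without Cre 2. It was 3.79% without Cre 3 and 4 and 6.87% without GFP 4. Of 8 stellate cell markers 4 were measured, with 2 positive and 2 negative differences (Lrat -0.32 and Reln -0.14) and a median of 0.01. Col3a1, among the positive ones, also passed detection only through 1 AAV-Cre array. The stellate sums ran from 3651 to 8024 in AAV-GFP and from 5998 to 6929 in AAV-Cre. Clec4f, which marks Kupffer cells, and the endothelial Stab2 were detected in every array, so neither was at 0. Of 10 cholangiocyte markers 3 were measured, with sums from 610 to 1338 and from 1438 to 2591 that came mostly from Sox9. Muc1 (0.20) and Slc10a2 (-0.18) were detected in 2 arrays and 1 array, and Krt19, Krt7 and Epcam were not measured under their names. The sums of the measured hepatocyte markers ran from 108708 to 111342 in AAV-GFP and from 101218 to 130187 in AAV-Cre. The part of these cells in the differences of Cyp7b1 and Cyp8b1 was not tested.

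The array profiles of Cyp7a1 and Cyp7b1 were set against those of 10408 probes of named genes detected in all 8 arrays, by the root mean square difference of the deviations from the mean of the 8 arrays. The genes nearest to Cyp7b1 were Pld4 (0.164), Ankrd17 (0.167), Csf1r (0.175) and Pofut2 (0.188), where the deviations of Cyp7b1 themselves had a root mean square of 0.459. Csf1r, the receptor for a macrophage growth factor and 1 of the macrophage markers above, had 6.48, 7.12, 7.19 and 6.90 in AAV-GFP and 7.37, 7.73, 7.33 and 7.24 in AAV-Cre. Its groups too did not overlap, but it was picked here for its likeness to Cyp7b1, so this is no separate result. Csf1r differed by 0.49 ± 0.19 (SE), by 0.26 without GFP 1 and 4 and by 0.17 on the authors' value table. Cyp7a1 was matched less closely, with Akr1c19 (0.465), Polg2 (0.496), Gm9958 (0.521) and Lime1 (0.526) nearest and 0.855 for Cyp7a1 itself. The points of these comparisons share their 8 arrays.

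**Figure D5:**
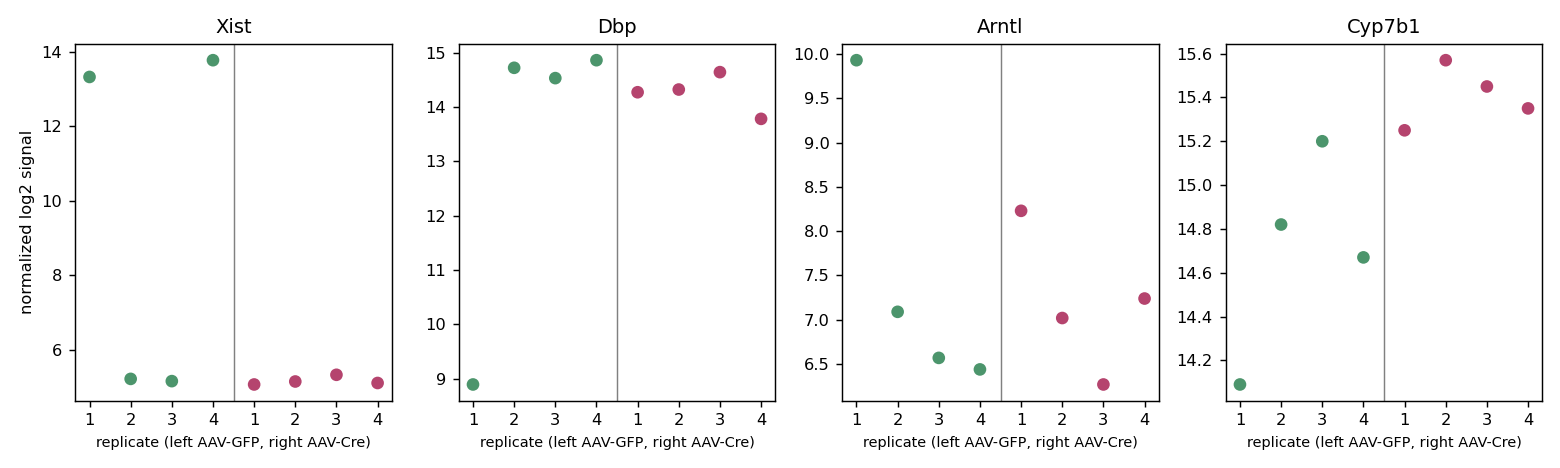
Normalized log2 signal (vertical axis, a separate scale in each panel) of Xist, the clock genes Dbp and Arntl, and Cyp7b1 in each array, AAV-GFP (green, GFP 1 to 4) left and AAV-Cre (red, Cre 1 to 4) right of the line. Xist is high in GFP 1 and 4 (13.33 and 13.78), Dbp is low in GFP 1 (8.89), and Cyp7b1 is lowest in those same controls (14.09 and 14.67).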

How the data were processed

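Total RNA of purified hepatocytes was labelled with a TargetAmp-Nano kit and hybridised by the authors to Illumina MouseWG-6 v2 bead arrays. The deposited table gives, for 45281 probes in 8 arrays, an intensity without normalization and a detection p-value against negative control beads (exported with GenomeStudio, version unstated in the sources used). A deposited value table of 16820 probes holds intensity after the authors' quantile normalization, on a linear uncentred scale, within 0.0389 (log2) of a quantile normalization of the first table (column medians 708.13 to 709.11). It lacked 2798 of the detected probes.

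The intensities were corrected by normexp from the detection p-values (offset 16), then quantile-normalized and log2-transformed (neqc, limma 3.58.1, R 4.3.3). The 19618 probes detected (p at most 0.05) in 1 or more arrays were fitted with lmFit and eBayes, AAV-Cre against AAV-GFP, with Benjamini-Hochberg adjustment over all of them. Calls were made at 0.25, an FDR threshold of the study's methods, and the count of member calls at 0.05 was also 0. Adjusted p-values are limma's, and differences are AAV-Cre minus AAV-GFP. SAM was run over all label permutations. Of 14408 value-table probes with 1 symbol, 14394 gene identifiers were in the reference table and 0 symbols changed.

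All members were named, with up to 3 genes of smallest p per list, each by its brightest probe, and the 4 nearest profiles of Cyp7a1 and Cyp7b1. Other list genes and the Baat profiles were named after their values were seen. Members and lists were chosen with earlier results of these data known. Alternatives were no background correction, an offset of 50, scaling to the 75th percentile, cyclic loess, the value table, 3 other detection filters, 1 probe per gene, trend and robust in eBayes, weights for arrays, a replicate block, and each array left out. Those without GFP 1 and 4, without Cre 3 and 4 and with the former as a term were chosen after seeing the data. The limma fit was tested on simulated data. Figures were drawn with matplotlib 3.10.9.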

Additional observations from a re-analysis of the deposited data

Results flagged for a closer look

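In 1 of 30 groups of 4 values examined, 1 array stood far from the rest of its group, where chance gives about 1 in 20. It was Cyp27a1 ILMN_2960114 in Cre 1, at a log2 signal of 14.53, where the nearest array was at 14.88 and the gap took up 0.937 of the range of the group. The other Cyp27a1 probes were lowest in the same AAV-Cre array, at 14.34 and 15.09.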

How the results depend on the processing

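Over 23 other fits, 248 of 269 differences of member probes kept their direction and 21 took the opposite sign, all in probes whose difference was near 0. No member passed an adjusted p of 0.25 in any limma fit (3 at an unadjusted p under 0.05, from 1 to 4 across fits). SAM on the authors' value table called 1 member and 543 probes, and on the values used here 0 and 1. The 1 probe called became 2 without background correction, with an offset of 50, with scaling to the 75th percentile, with trend and robust, with array weights and with GFP 1 and 4 as a term, 3 on the authors' value table and 0 among probes detected in all 8 arrays. It ran from 1 to 10 with 1 array left out (10 without GFP 2, 4 without Cre 1, 2 without GFP 3). The 1856 probes at an unadjusted p under 0.05 became 3402 with no detection filter, 3126 without Cre 1, 1082 without Cre 3, 997 without Cre 4, 1013 without GFP 1 and 4, 730 without Cre 3 and 4 and 1054 with the term. Their share higher in AAV-Cre was 55%, and 38.2% after cyclic loess. Scaling to the 75th percentile moved the median of all probes from 0.044 to 0.12.

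Opposite signs were seen for Cyp27a1 ILMN_2620326 (0.0047) after cyclic loess (-0.0588), without GFP 1 and 4 (-0.032), with those as a term (-0.0254), without Cre 3 and 4 (-0.304) and with 1 array left out (-0.149 to 0.208). Cyp27a1 ILMN_2960108 (-0.048) was 0.0328 after scaling to the 75th percentile and ran from -0.199 to 0.123 with 1 array left out. Cyp39a1 ILMN_2601183 (-0.0053) was 0.142 after that scaling and ran from -0.142 to 0.175. Amacr (0.023) was -0.0195 after cyclic loess and -0.0278 without Cre 3 and 4, and ran from -0.315 to 0.33. The cause was not tested. Cyp8b1 lost its unadjusted p under 0.05 without GFP 1, 3 or 4 or Cre 3 or 4, and Cyp39a1 ILMN_2742311 kept it in all 23. The alternative minus the classic route was -0.282 with 1 probe per gene and 0.196 without GFP 1 and 4.

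With the replicate number given here within each group as a block, 1 probe was called. At an unadjusted p under 0.05 there were 900 higher and 1178 lower, with Baat among the latter. Arrays of the same number correlated at 0.191, 0.068, 0.017 and 0.132 in their deviations, and those of different numbers at -0.272 to 0.32. Such values cannot show whether the samples were paired, which was not tested.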

Other observations

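The profile of Baat, low in Cre 3 and 4 only, was compared with those of 10408 probes after its values were seen. The nearest were Pgrmc1, a heme-binding membrane protein (root mean square difference 0.168), Selenok, a selenoprotein of the endoplasmic reticulum (0.172), Ndufb9, a subunit of mitochondrial complex I (0.177), and Vps29, a retromer subunit (0.180), where the deviations of Baat had a root mean square of 1.11. Their log2 differences were -1.22, -1.17, -1.22 and -1.22, and none was called. Among clock genes, 13 of 16 were measured, with 6 positive and 7 negative differences, a median of -0.10 and 0 calls. Npas2, among the negative ones, passed detection only through 1 AAV-GFP array. Nr1d1, a clock repressor, differed by 1.19 and Bhlhe40 by -0.86, both at an unadjusted p under 0.05 (0.0146 and 0.0476). The male-biased Mup20 and Elovl3 had groups that did not overlap (beside 4.86% of all probes), with differences of 1.01 and 2.60. Sox9, the 1 cholangiocyte marker at that p, differed by 1.19 ± 0.29 (SE, unadjusted p = 0.00273), and its groups did not overlap. The other Sox9 probe, dimmer, differed by 0.29 ± 0.46 (SE) with overlapping groups.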
